A study of Mus musculus with 12 samples.

Results

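The nuclear genes of oxidative phosphorylation were taken as all symbols of the count table that begin with Ndufa, Ndufb, Ndufs, Ndufv, Ndufc, Uqcr, Cox4 to Cox8 or Atp5, or that are Sdha, Sdhb, Sdhc or Sdhd, with at least 10 counts in at least 3 of 12 libraries. Of 92 matching symbols, 87 met the count rule, out of 21878 genes in the table. They hold 36 genes of complex I, 4 of complex II, 8 of complex III, 15 of complex IV and 15 of complex V, 78 subunits and subunit isoforms in all. The symbol pattern also takes 9 assembly and related factors, namely Ndufaf1 to Ndufaf7, Atp5sl and Atp5s, which are described apart. Ndufa4 and Ndufa4l2 are placed with complex IV, because the Ndufa4 protein is now known as a subunit of that complex.

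Total RNA was sequenced from mouse liver samples labelled with Hepa1-6, a mouse hepatoma cell line. The labels do not tell tumours grown in mice from cultured cells. All groups carried the same line, and there were 3 libraries in each of 4 groups: the combination of IFNa and antiPD1, antiPD1 alone, IFNa alone, and untreated. IFNa is the antiviral cytokine interferon alpha, and antiPD1 is an antibody against PD-1, an inhibitory receptor of T cells. Doses, times, mouse strain and age, and whether replicates came from separate animals, are not in the labels, so p-values measure only the spread between these samples.

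In oxidative phosphorylation, complexes I and II pass electrons from NADH and succinate to ubiquinone, complex III passes them on to cytochrome c, and complex IV passes them to oxygen. Complexes I, III and IV pump protons across the inner mitochondrial membrane, and complex V, the ATP synthase, uses their return to make ATP. Liver cells are rich in mitochondria, and most subunits are encoded in the nucleus. The subunits encoded by the mitochondrial genome could not be analysed here, since 0 genes of that genome were found by symbol in the count table.

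Library totals were 31.3 to 38.5 M (mega) counts, and the 87 genes held 1.05% to 1.18% of them. Hepatoma and fetal liver markers were abundant in every library, with a summed 20471 to 35907 CPM (counts per M, scaled by TMM), so the labelled line's markers were present. They summed to 23818 ± 3734 CPM in combination, 28482 ± 7648 in antiPD1, 31676 ± 3451 in IFNa and 33492 ± 2277 in untreated libraries (mean ± SD, n = 3 each). Their median log2 fold change against untreated was -0.48 in combination and -0.36 in antiPD1, with 1 of 7 called lower in each (edgeR, adjusted p below 0.05; 2 in combination and 0 in antiPD1 without antiPD1 replicate 3), and their part in the values of the 87 genes was not tested. Markers of other cells moved with the groups: all 10 T cell markers and 9 of 10 macrophage markers rose in antiPD1 against untreated libraries (edgeR, adjusted p below 0.05), and 3 and 6 of them rose in combination against untreated libraries. Without antiPD1 replicate 3, described below, 1 and 1 rose in antiPD1 and 9 and 9 in combination. That refit called 2.26% of all genes in antiPD1 and 20.1% in combination, against 14.8% and 12.6% with all libraries. The median log2 fold changes in combination were 1.87 for T cell and 1.70 for macrophage markers in both fits. Summed T cell markers were 109 to 138 CPM in combination, 70.7 to 318 in antiPD1, 22.7 to 56.1 in IFNa and 31.5 to 41.7 in untreated libraries. Summed adult hepatocyte markers were 497 to 2152 CPM in combination, 386 to 3628 in antiPD1, 387 to 1999 in IFNa and 268 to 639 in untreated libraries, with 0 of 12 called against untreated with edgeR (2 in combination and 6 in antiPD1 had an unadjusted p below 0.05). Their median log2 fold change against untreated was 1.46 in combination and 2.01 in antiPD1, and without antiPD1 replicate 3 it was 1.46, with 2 called, and 0.53, with 0 called. Of 3 tested brown adipocyte markers, 1 of which is Ppargc1a, 1 rose in combination and 3 in antiPD1 (1 and 0 without antiPD1 replicate 3), with sums of 7.94 to 21.1, 9.35 to 36.6, 4.85 to 7.21 and 3.96 to 6.67 CPM in combination, antiPD1, IFNa and untreated libraries. Fewer cells of a type and less RNA per cell cannot be told apart in such bulk samples. On the first principal component, with 53.7% of the variance, antiPD1 replicate 3 lay at -91.9, against -22.9 and -10.8 for the other antiPD1 libraries. On the second component IFNa replicate 1 lay at 70.6, against -11.4 and -15.0 for the other IFNa libraries. The calls of the 87 genes in antiPD1 against untreated libraries are therefore also given without antiPD1 replicate 3, where 0 of the 87 genes and 2.26% of all genes were called.

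The promoters of 4 genes that passed a test of treatment are shown here as examples from different complexes; Ndufa11 fell both in antiPD1 and in combination against untreated libraries, Atp5g3 in antiPD1, and Uqcrfs1 and Cox7a2l in combination. Each line gives the 250 bases before the transcription start of RefSeq on GRCm38.p6, from 5′ to 3′. Capitals mark a match to the NRF1 motif (GCGCA, then any 1 base, then GCGC). The Cox7a2l window lies wholly, and the Uqcrfs1 window partly, within the span of its gene in the GENCODE M21 annotation. The annotations thus place these starts differently, and windows before the GENCODE starts were not searched.
Ndufa11 (chr17:56717512-56717761, plus strand): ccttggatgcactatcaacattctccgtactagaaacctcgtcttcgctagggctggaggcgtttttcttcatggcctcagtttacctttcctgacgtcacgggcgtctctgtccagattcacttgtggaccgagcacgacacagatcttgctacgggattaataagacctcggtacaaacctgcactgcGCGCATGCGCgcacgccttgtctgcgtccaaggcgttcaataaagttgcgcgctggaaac
Uqcrfs1 (chr13:30545317-30545566, minus strand): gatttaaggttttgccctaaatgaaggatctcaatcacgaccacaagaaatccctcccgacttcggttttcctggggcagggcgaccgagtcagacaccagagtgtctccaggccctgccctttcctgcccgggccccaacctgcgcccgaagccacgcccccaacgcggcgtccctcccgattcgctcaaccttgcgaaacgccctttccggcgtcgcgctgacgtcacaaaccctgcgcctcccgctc
Cox7a2l (chr17:83514334-83514583, minus strand): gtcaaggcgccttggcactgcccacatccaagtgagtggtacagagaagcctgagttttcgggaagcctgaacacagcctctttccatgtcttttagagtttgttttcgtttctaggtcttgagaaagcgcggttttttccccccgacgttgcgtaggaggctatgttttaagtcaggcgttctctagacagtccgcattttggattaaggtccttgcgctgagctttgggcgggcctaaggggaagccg
Atp5g3 (chr2:73911327-73911576, minus strand): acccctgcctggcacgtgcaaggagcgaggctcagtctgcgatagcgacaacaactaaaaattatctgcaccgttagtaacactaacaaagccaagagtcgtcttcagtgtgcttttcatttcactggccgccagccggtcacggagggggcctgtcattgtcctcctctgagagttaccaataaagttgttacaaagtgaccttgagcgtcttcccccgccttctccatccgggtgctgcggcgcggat
NRF1, the nuclear respiratory factor, and GABP, an ETS factor, are known activators of respiratory chain genes. The Ndufa11 window holds an NRF1 match that begins 60 bases before the start, while the printed windows of Uqcrfs1, Cox7a2l and Atp5g3 hold none; Atp5g3 has a match that begins at base 12 after its start. Windows of 300 bases (250 before and 50 after the start) were found for 73 of the 87 genes and searched on both strands. The NRF1 motif was in 18 of 73 windows (24.7%), against 6.6% of 17491 protein-coding genes' windows. The ETS motif CCGGAAG was in 16 (21.9%, against 11.9%), and the YY1 motif AAGATGGC in 10 (13.7%, against 3.22%). The CCAAT box, a general promoter element, was in 32 (43.8%, against 39.03%). The ETS and YY1 motifs can share the letters AAG where they lie end to end, and a match is a description of the sequence only.

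Transcript levels differed between the complexes far more than between the groups. The deposited FPKM scale (fragments per kilobase and M fragments) divides by a gene length. On it the median gene of complex IV was at 287 FPKM over the 12 libraries and that of complex V at 195 FPKM. The median was 114 FPKM in complex III, 80.3 in complex II and 64.2 in complex I. The assembly and related factors were lowest, with a median of 7.25 FPKM, between Atp5s at 1.11 and Ndufaf2 at 11.1. Summed CPM, which are not divided by length, put complex V above complex IV. Group means of the sum were 3967 to 4395 CPM for the 15 genes of complex V and 2072 to 2335 for the 15 of complex IV.

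**Figure D1:**
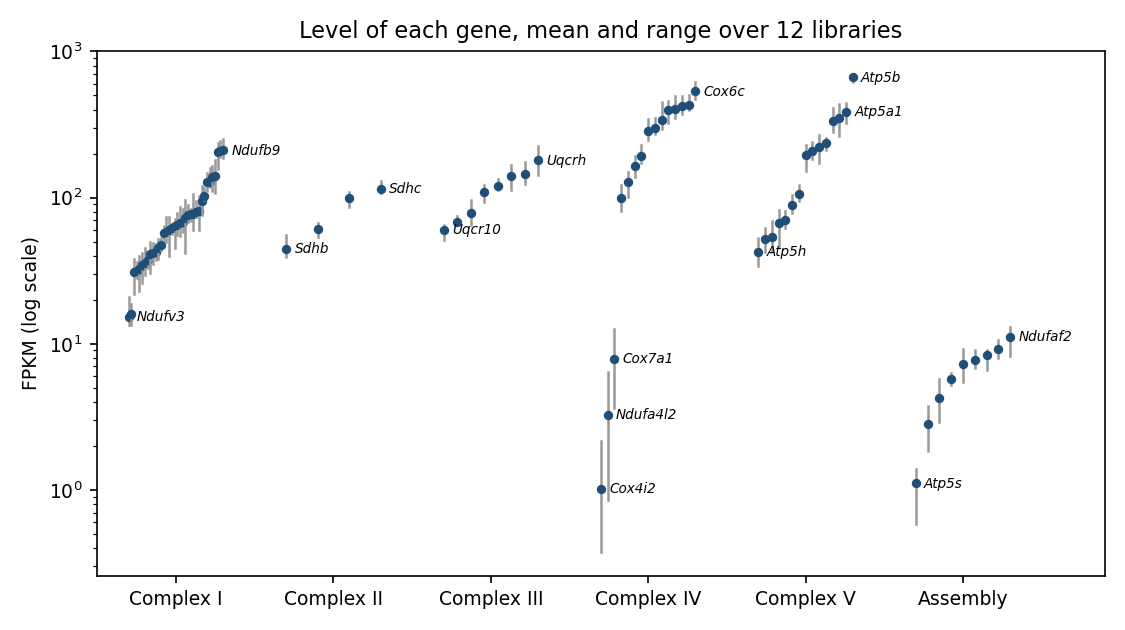
Mean level of each of the 87 genes over 12 libraries (points) and its range (grey lines), in FPKM on a log scale, by complex. Complex IV spans from Cox4i2 at 1.02 FPKM to Cox6c at 532 FPKM, with 3 isoform genes far below the other subunits.

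Within the complexes, Atp5b, the catalytic beta subunit of ATP synthase, was the most abundant gene at 668 ± 20.6 FPKM in combination, 654 ± 15.6 in antiPD1, 657 ± 33.7 in IFNa and 679 ± 24.1 in untreated libraries (mean ± SD, n = 3 each, here and below). It stood apart from the next gene in the order, Cox6c, an accessory subunit of complex IV, since their ranges over 12 libraries (619 to 694 and 475 to 613 FPKM) did not overlap. Of 86 pairs of neighbours in the order of levels, only 4 were separate in this way, so the order within most neighbouring pairs is not resolved. Atp5a1, the alpha subunit that alternates with beta in the F1 head, averaged 384 FPKM, below Atp5b.

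Among core subunits, Ndufs1, which carries iron-sulfur clusters in complex I, had 34.9 ± 0.546 FPKM in combination, 31.5 ± 2.39 in antiPD1, 32.8 ± 6.05 in IFNa and 38.8 ± 2.92 in untreated libraries. Ndufv1, which binds NADH, had 44.6 ± 0.945, 46.9 ± 5.07, 49.3 ± 2.22 and 49.3 ± 3.29 FPKM in combination, antiPD1, IFNa and untreated libraries, and neither gene passed an edgeR test between groups. The 4 subunits of complex II, which is also succinate dehydrogenase, spanned a narrow range: Sdhb, the iron-sulfur subunit, averaged 44.7 FPKM and Sdhc, a membrane anchor, 115 FPKM. In complex III, Uqcrc1, a core subunit, had 71.2 ± 3.88 FPKM in combination, 66.5 ± 2.6 in antiPD1, 68.0 ± 2.95 in IFNa and 68.1 ± 1.77 in untreated libraries. In complex IV, Cox5a, a housekeeping subunit, had 203 ± 5.03 FPKM in combination, 192 ± 19.5 in antiPD1, 196 ± 27.8 in IFNa and 183 ± 13.1 in untreated libraries. None of these was called in any comparison. The median gene of complex I was at 65.6 FPKM in combination, 63.0 in antiPD1, 63.2 in IFNa and 64.6 in untreated libraries. That of complex II was at 82.2, 77.5, 79.0 and 82.7 FPKM in combination, antiPD1, IFNa and untreated libraries. In the same order of groups, that of complex III was at 107, 112, 117 and 122 FPKM, that of complex IV at 296, 252, 298 and 288 FPKM, and that of complex V at 205, 191, 192 and 184 FPKM.

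The 87 genes varied less between libraries than most genes. The SD of log2 CPM over the 12 libraries had a median of 0.144, against 0.270 over the 14330 genes tested, and 84 of the 87 genes lay below that median of all genes. The 3 exceptions were Ndufa4l2, Cox4i2 and Cox7a1, isoforms of complex IV subunits, whose SDs had a median of 0.69 and which were also the lowest-expressed genes of their complex. Low counts raise this SD, and 82 of the 87 genes averaged 10 CPM or more.

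What variation there was ran in part through whole libraries. In combination libraries 34, 28 and 16 of 87 genes lay above their own 12-library mean, in antiPD1 libraries 15, 25 and 67, in IFNa libraries 30, 23 and 82, and in untreated libraries 62, 68 and 25. AntiPD1 replicate 3 and IFNa replicate 3 were thus high for most genes, and untreated replicate 3 was low, within groups given the same treatment. The SD between replicates of the median deviation was 0.10 on the log2 scale, which is about as large as the shifts of the whole set between groups given next.

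**Figure D2:**
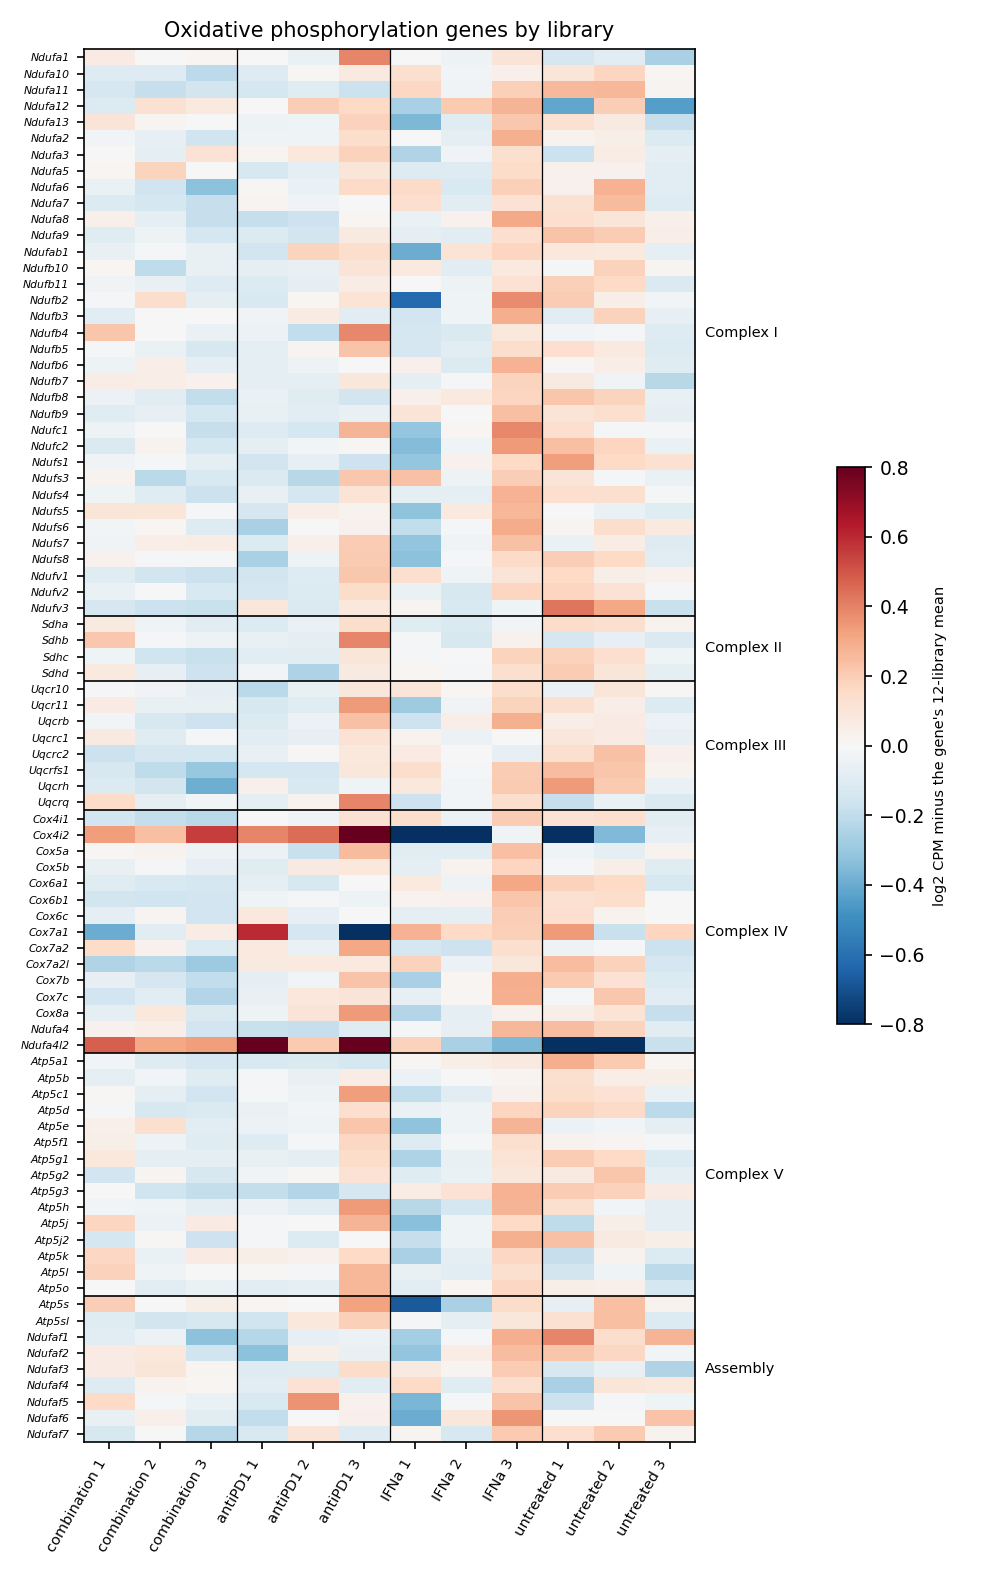
log2 CPM of the oxidative phosphorylation genes (rows, by complex, all but 1 drawn) in each library (columns), minus the gene's mean over 12 libraries. AntiPD1 replicate 3 and IFNa replicate 3 are red over most rows, with 67 and 82 genes above their own mean, and the strongest colours are in the rows of Cox4i2, Ndufa4l2 and Cox7a1.

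Tests were made with edgeR over 14330 genes, and a gene was called when its adjusted p was below 0.05. The comparisons with untreated libraries share those 3 libraries, so their values are set side by side and not counted as independent. In IFNa against untreated libraries 0 of 87 genes were called (0.0% of all genes; DESeq2 also called 0 of 87), and 0 of 87 had an unadjusted p below 0.05, against 5.59% of all genes. The median log2 fold change was -0.02, against 0.01 over all genes. The smallest p in each direction belonged to Sdha, the flavoprotein of complex II, at -0.18 ± 0.09 (SE), and to Ndufa4l2 at 0.75 ± 0.38, both with an edgeR adjusted p of 0.885. The 95% interval of the fold change lay within 1.5-fold either way for 81 of the 87 genes, against 50.2% of all genes. Among genes averaging 10 CPM or more it did so for 80 of 82 genes, against 70.3%.

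In antiPD1 against untreated libraries 1 of 87 genes rose and 3 fell (4.6% in all), where 14.8% of all genes were called, 9.76% as higher and 5.08% as lower. Ndufa4l2 rose, and Atp5g3, Atp5a1 and Ndufa11 fell. The median log2 fold change was -0.04, against -0.01 over all genes, and the interval lay within 1.5-fold for 80 of 87 genes, against 39.7% of all genes. Among genes averaging 10 CPM or more the share was 78 of 82, against 56.0%. No gene of complex II or III and none of the assembly factors passed.

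In combination against untreated libraries 0 of 87 genes rose and 5 fell, where 12.6% of all genes were called, 7.58% as higher and 5.0% as lower. Among those that fell were Uqcrfs1 and Uqcrc2 of complex III, Ndufa11 of complex I and Cox7a2l of complex IV. The share that fell, 5 of 87, is close to the share of all genes. The log2 fold change was below 0 for 65 of 87 genes, against 51.2% of all genes, with a median of -0.12, against -0.01 over all genes. This median ran between -0.09 and -0.14 in complexes I to V, with 27 of 36, 3 of 4, 7 of 8, 11 of 15 and 11 of 15 genes below 0. All 3 combination libraries lay below all 3 untreated ones for 22 of 87 genes, against 24.8% of all genes. The interval lay within 1.5-fold for 79 of 87 genes, against 41.1% of all genes, and for 77 of 82 genes averaging 10 CPM or more, against 57.7%.

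A different test on the other table, limma on log2(FPKM + 1) with its own filter, split the calls of that comparison differently. It called 1 of the 87 genes as higher (Ndufa4l2) and 0 as lower, and 792 higher and 204 lower of 11428 genes tested, against 1086 higher and 717 lower of 14330 with edgeR on counts. Test, scaling and gene set all differ between these fits. Over all alternatives the median of the 87 genes ranged from -0.17 to -0.02, beside an SD of 0.10 between replicates.

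**Figure D3:**
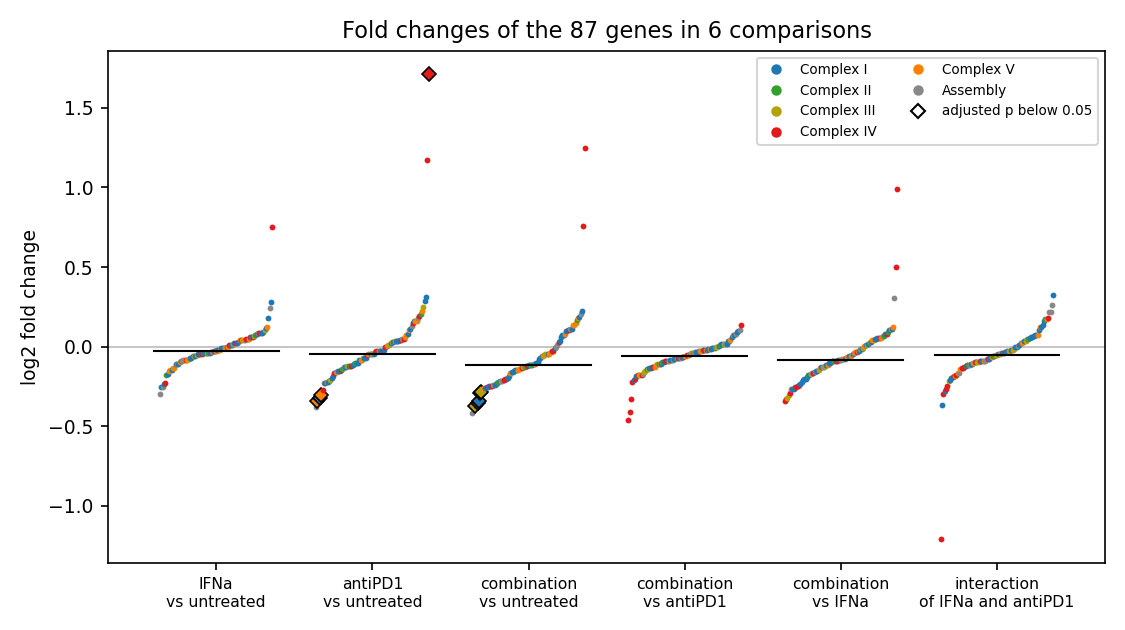
log2 fold change of each of the 87 genes (points, coloured by complex, sorted within each comparison) with the median (black line) in 6 comparisons; outlined diamonds have an adjusted p below 0.05. Most points lie within 0.4 of 0, while Ndufa4l2 reaches 1.71 and Cox4i2 1.17 in antiPD1 against untreated libraries.

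The tests between treatments called none of the 87 genes. In combination against antiPD1 libraries 0 were called (0.0% of all genes), and 2 had an unadjusted p below 0.05, against 4.76% of all genes; DESeq2 also called 0. The smallest p there was that of Cox7a2l, at -0.33 ± 0.10 with an edgeR adjusted p of 0.991. In combination against IFNa libraries edgeR called 0 (0.956% of all genes). An unadjusted edgeR p below 0.05 was seen for 13 of 87, against 23.1% of all genes. DESeq2 called 7 of 87 in that comparison, all lower (8.05%). Of 14330 genes it called 823 lower and 834 higher there, 11.6% in all. Among the leading genes there were Cox6b1 at -0.25 ± 0.08 (edgeR adjusted p = 0.103) and Uqcrfs1 at -0.32 ± 0.10 (0.103). In the interaction of IFNa and antiPD1 0 were called (0.0% of all genes) with edgeR and with DESeq2, and 1 had an unadjusted p below 0.05, against 6.06%. That gene was Ndufa4l2, at -1.21 ± 0.52 with an edgeR adjusted p of 0.799, so a smaller effect of the combination than the sum of both treatments was not shown. The interval lay within 1.5-fold for 84 of 87 genes in combination against antiPD1, 83 in combination against IFNa and 67 in the interaction, against 50.1%, 43.6% and 28.5% of all genes.

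In complex I, Ndufa11, an accessory subunit of the membrane arm, had 50.04, 48.4 and 49.5 CPM in combination libraries, 49.9, 51.2 and 48.7 in antiPD1, 61.5, 53.9 and 62.5 in IFNa, and 65.6, 65.9 and 55.7 in untreated libraries. All 6 libraries given antiPD1, alone or combined, lay below all 6 without it. Its log2 fold change was -0.34 ± 0.09 in combination (edgeR adjusted p = 0.0383) and -0.32 ± 0.09 in antiPD1 libraries (0.0393), each against untreated. Without antiPD1 replicate 3 these were -0.33 (0.0281) and -0.29 (0.128), so the antiPD1 call was lost. The gene lies at chr17:56717767-56722141 on the plus strand (GENCODE M21, mm10), and its exons overlap those of Vmac on the minus strand. The strand setting of the counting is not given in the sources used here. Vmac, at 10.7 to 22.9 CPM, also fell, by 0.70 in antiPD1 (edgeR adjusted p = 0.0252) and by 0.56 in combination (0.0492) on the log2 scale, and whether reads of one gene were counted for the other was not tested.

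In complex III, Uqcrfs1, the Rieske iron-sulfur protein, had 120, 114 and 106 CPM in combination, 119, 119 and 139 in antiPD1, 144, 130 and 150 in IFNa, and 155, 152 and 133 in untreated libraries. Combination libraries lay below all untreated and all IFNa libraries, while antiPD1 libraries overlapped both. The log2 fold change in combination against untreated was -0.37 ± 0.10 (edgeR adjusted p = 0.0376), with the gene at chr13:30540308-30545362 on the minus strand. Uqcrc2, a core subunit, had 203, 209 and 208 CPM in combination, 220, 231 and 243 in antiPD1, 240, 229 and 219 in IFNa, and 251, 270 and 236 in untreated libraries. Its combination libraries lay below those of every other group, and it fell by 0.28 ± 0.08 against untreated (edgeR adjusted p = 0.0426). It lies at chr7:120635176-120659524 on the plus strand.

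Cox7a2l, which joins complexes III and IV in supercomplexes, had 176, 178 and 170 CPM in combination, 218, 219 and 219 in antiPD1, 236, 200 and 221 in IFNa, and 246, 235 and 189 in untreated libraries. Here too the combination libraries lay below all others, and the antiPD1 libraries lay within the range of the untreated ones. It fell by 0.35 ± 0.10 on the log2 scale in combination against untreated (edgeR adjusted p = 0.0478), against -0.03 ± 0.10 in antiPD1 and -0.03 ± 0.10 in IFNa against untreated. The interaction for this gene was -0.30 ± 0.15 (edgeR adjusted p = 0.799), so a difference between these effects was not shown. It lies at chr17:83501918-83517330 on the minus strand.

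In complex V, Atp5a1 had 993, 936 and 916 CPM in combination, 926, 929 and 912 in antiPD1, 1013, 1039 and 1058 in IFNa, and 1232, 1161 and 1016 in untreated libraries. All 6 libraries given antiPD1 lay below all 6 without it, but untreated replicate 3 was close to the IFNa libraries. It fell by 0.30 ± 0.08 in antiPD1 (edgeR adjusted p = 0.0381; -0.28 and 0.111 without antiPD1 replicate 3), and its value of -0.26 ± 0.08 in combination did not pass (0.0635). The gene lies at chr18:77773729-77782869 on the plus strand, and its exons overlap those of Haus1 on the minus strand, which was at 16.95 to 31.03 CPM and did not pass, with -0.52 in antiPD1 and -0.33 in combination.

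Atp5g3, 1 of 3 genes for the c subunit of the rotor ring, had 188, 168 and 164 CPM in combination, 164, 160 and 171 in antiPD1, 196, 204 and 228 in IFNa, and 217, 214 and 197 in untreated libraries, again with no overlap between libraries with and without antiPD1. It fell by 0.34 ± 0.09 in antiPD1 (edgeR adjusted p = 0.0312; -0.36 and 0.0701 without antiPD1 replicate 3), and its value of -0.27 ± 0.09 in combination did not pass (0.0673). It lies at chr2:73908447-73911326 on the minus strand. The 3 c subunit genes encode the same mature protein, and reads that fit several copies may have been split or dropped in counting.

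Among all 87 genes, 5 were lower in all 6 libraries given antiPD1 than in all 6 without it, among them Atp5a1, Atp5g3, Cox6b1 and Ndufa11. The share, 5.75%, is near that of all genes, 5.18%, and this way of grouping was chosen after the values were seen. Mean levels with antiPD1 were 0.81 to 0.88 of those without. On the deposited FPKM scale 2 of 87 genes did so, against 2.88% of all genes, and without antiPD1 replicate 3, which loosens the rule for every gene, 8 did so, against 5.92%. Cox6b1, a subunit of complex IV that faces the intermembrane space, had 207, 205 and 205 CPM in combination, 223, 227 and 223 in antiPD1, 234, 234 and 267 in IFNa, and 249, 252 and 230 in untreated libraries. It was not called against untreated, with -0.25 ± 0.08 in combination (edgeR adjusted p = 0.0623) and -0.12 ± 0.08 in antiPD1 (0.304).

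In the other direction 2 of 87 genes, Ndufa4l2 and Cox4i2, were higher in all 6 libraries given antiPD1 than in all 6 without it, where 8.03% of all genes were. Ndufa4l2, a paralog of Ndufa4 known as a target of the hypoxia factor HIF-1, had 5.47, 4.89 and 4.96 CPM in combination, 7.19, 4.54 and 9.39 in antiPD1, 4.47, 3.29 and 3.07 in IFNa, and 1.59, 1.35 and 3.48 in untreated libraries. Both groups given antiPD1 lay above all untreated libraries, and untreated replicate 3 was more than 2-fold above the other untreated libraries. It rose by 1.71 ± 0.38 on the log2 scale in antiPD1 (edgeR adjusted p = 0.0221), while its 1.25 ± 0.38 in combination did not pass (0.0518). Without antiPD1 replicate 3 the antiPD1 value was 1.46 (edgeR adjusted p = 0.0731), and without untreated replicate 1 or 2 it was 1.54 (0.0993) or 1.47 (0.0927). In combination, leaving out both libraries that stood apart gave 1.25 (0.0263). The gene lies at chr10:127514967-127517154 on the plus strand, and its exons overlap those of Shmt2 on the minus strand. Shmt2 was at 64.4 to 148 CPM and had log2 fold changes of 0.01 in antiPD1 and 0.11 in combination against untreated.

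Cox4i2, an isoform of Cox4i1 known from lung and pericytes and from hypoxic cells, had 3.10, 2.91 and 3.61 CPM in combination, 3.23, 3.35 and 6.24 in antiPD1, 1.11, 1.32 and 2.41 in IFNa, and 1.39, 1.93 and 2.35 in untreated libraries. Libraries with and without antiPD1 did not overlap. Its log2 fold change was 1.17 ± 0.37 in antiPD1 (edgeR adjusted p = 0.0568) and 0.76 ± 0.37 in combination (0.185), so it was not called in either. The antiPD1 value passed under 5 of 21 alternatives, among them DESeq2 (0.0181), the replicate block (0.0222) and limma on log2(FPKM + 1) (0.0488), and was 0.81 (edgeR adjusted p = 0.223) without antiPD1 replicate 3. It lies at chr2:152754173-152765037 on the plus strand. Cox7a1, the heart and skeletal muscle isoform of Cox7a2, had 1.69, 2.09 and 2.32 CPM in combination, 3.37, 2.02 and 1.10 in antiPD1, 2.70, 2.49 and 2.54 in IFNa, and 2.82, 1.96 and 2.51 in untreated libraries. It overlapped between all groups except that combination libraries lay below IFNa libraries, and it was not called.

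**Figure D4:**
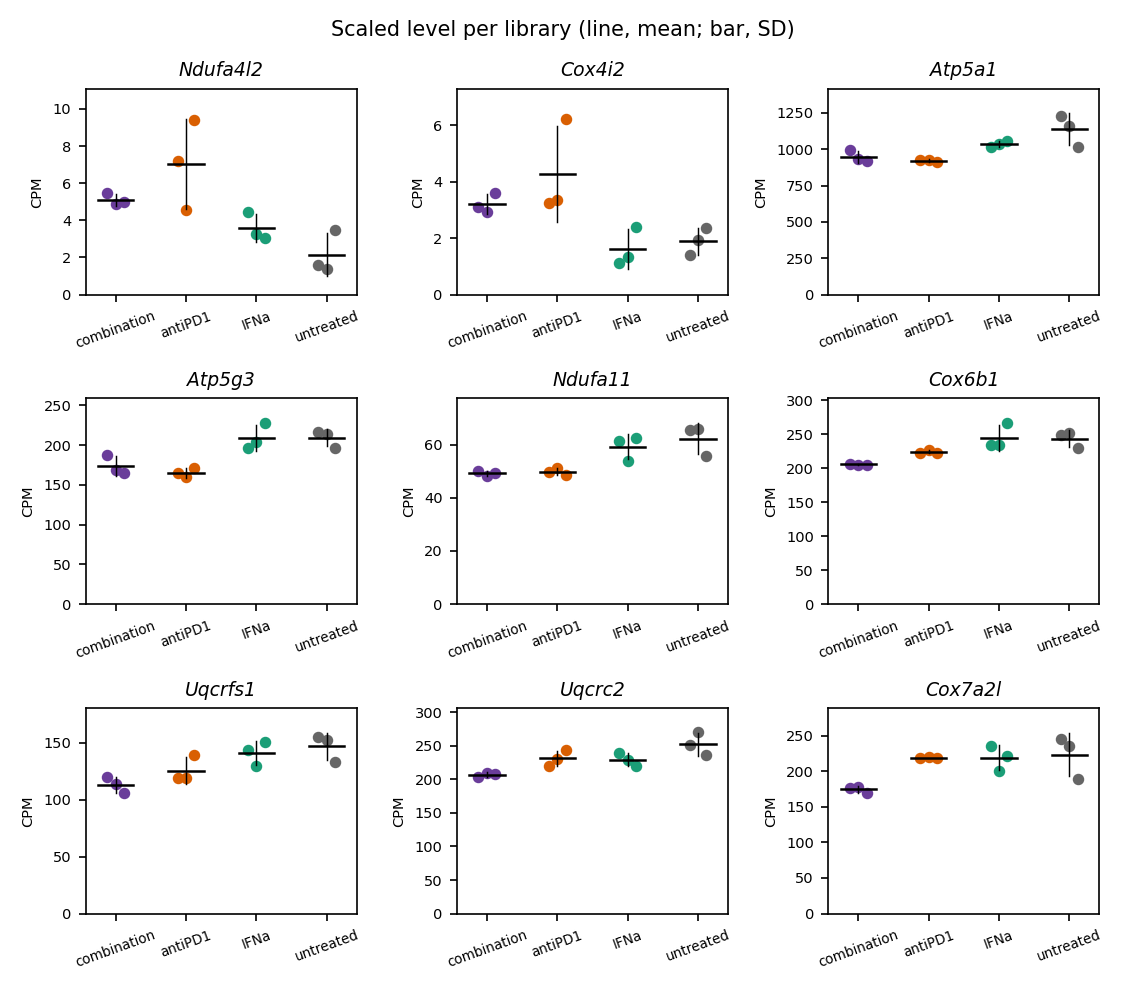
CPM in each library (points) with group mean (line) and SD (bar) for 9 genes, with combination, antiPD1, IFNa and untreated libraries from left to right and axes from 0. Ndufa4l2 and Cox4i2 are higher in the 2 groups given antiPD1, and the means of the other 7 lie closer together, with fold changes against untreated libraries of at most 0.37 in size on the log2 scale.

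The 7 markers of pericytes and smooth muscle summed to 199 to 263 CPM in combination, 193 to 279 in antiPD1, 122 to 143 in IFNa and 81.1 to 190 in untreated libraries, where the highest, untreated replicate 3, was close to the lowest antiPD1 library. Of the 7, Rgs5, a pericyte regulator of G protein signalling, rose, by 1.14 ± 0.24 in combination (edgeR adjusted p = 0.0213) and 0.99 ± 0.24 in antiPD1 (0.0277; 0.104 without antiPD1 replicate 3) against untreated, and the other 6 were not called. Their part in the Ndufa4l2 and Cox4i2 values was not tested. Fibroblast markers summed to 1594 to 1965 CPM in combination, 1540 to 4315 in antiPD1, 1342 to 1533 in IFNa and 476 to 1761 in untreated libraries. Skeletal and heart muscle markers summed to 1.25 to 3.24 CPM over all libraries.

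As shares of their families, the isoforms stayed small. Ndufa4l2 made up 1.32 ± 0.20% of the summed FPKM of Ndufa4 and Ndufa4l2 in combination, 1.93 ± 0.616% in antiPD1, 0.861 ± 0.194% in IFNa and 0.533 ± 0.345% in untreated libraries. Ndufa4 itself had 296 ± 28.3 FPKM in combination, 252 ± 3.28 in antiPD1, 298 ± 40.2 in IFNa and 304 ± 29.3 in untreated libraries and was not called. Cox4i2 made up 0.331 ± 0.0417% of the Cox4 pair in combination, 0.362 ± 0.102% in antiPD1, 0.125 ± 0.0453% in IFNa and 0.154 ± 0.043% in untreated libraries. The share with antiPD1 did not overlap that without it in either family. Cox7a1 made up 6.18 ± 1.45% of the Cox7a1 and Cox7a2 sum in combination, 6.69 ± 3.87% in antiPD1, 8.57 ± 0.78% in IFNa and 8.61 ± 1.82% in untreated libraries; its combination libraries lay below its IFNa libraries, and the other groups overlapped. In the c subunit trio, Atp5g3 held 42.3 ± 2.56% in combination, 39.8 ± 1.39% in antiPD1, 45.7 ± 0.679% in IFNa and 44.8 ± 2.49% in untreated libraries, and Atp5g1 held 9.04% to 11.4% in every library.

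**Figure D5:**
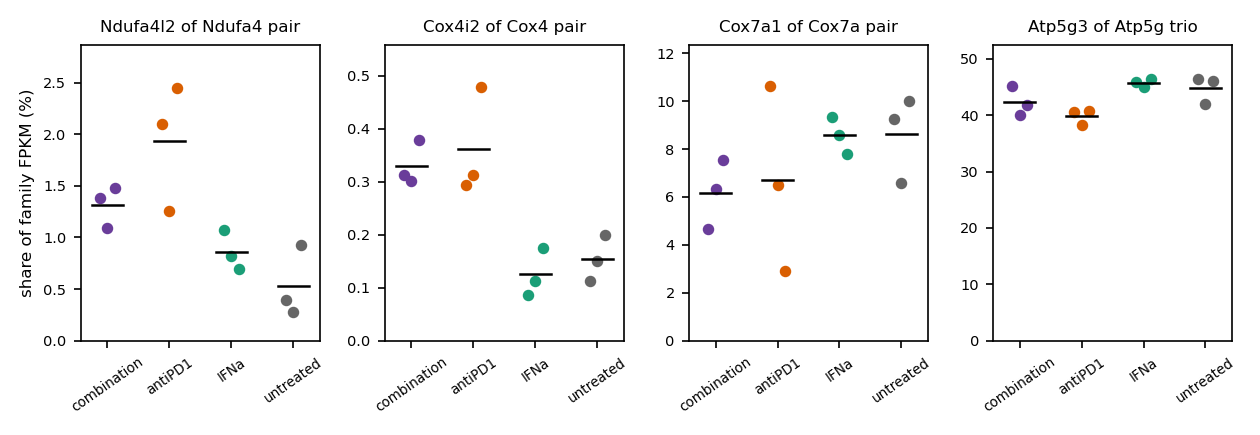
Share of the family's summed FPKM held by Ndufa4l2, Cox4i2, Cox7a1 and Atp5g3 in each library (points) with the group mean (line), in combination, antiPD1, IFNa and untreated libraries from left to right. Ndufa4l2 and Cox4i2 reach at most 2.45% and 0.479%, both in antiPD1 replicate 3.

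The 5 matching genes that were too low are tissue isoforms. Cox6a2, the heart and muscle isoform of Cox6a1, had 10, 5 and 12 counts in combination, 5, 4 and 9 in antiPD1, 1, 4 and 6 in IFNa, and 0, 1 and 0 in untreated libraries. Cox6b2, the testis isoform of Cox6b1, had 1 to 6 counts, and Cox7b2, Cox8b and Cox8c had at most 3 counts in any library. Of their housekeeping partners, Cox6a1 had 324 ± 6.59 FPKM in combination, 316 ± 19.2 in antiPD1, 369 ± 69.1 in IFNa and 358 ± 33.9 in untreated libraries.

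Among genes that build or drive the respiratory chain, the 19 tested regulators of mitochondrial biogenesis had 2 that rose and 2 that fell in antiPD1 against untreated libraries. Of all genes, 9.76% rose and 5.08% fell there. In combination against untreated 0 of the 19 were called with edgeR, and 5 had an unadjusted p below 0.05 (31.8% of all genes did). DESeq2 called 2 of them there, against 21.2% of all genes. In antiPD1 against untreated, Ppargc1a and Ppargc1b, the coactivators PGC-1alpha and PGC-1beta, rose by 0.92 ± 0.27 (edgeR adjusted p = 0.0454) and 0.60 ± 0.18 (0.0473). Gabpa, the DNA-binding subunit of GABP, fell by 0.40 ± 0.09 (0.0236), and Tfam, which packages and transcribes mitochondrial DNA, fell by 0.50 ± 0.13 (0.0302). Without antiPD1 replicate 3, where 2.26% of all genes were called, Ppargc1a was not called. That refit is not given here for Ppargc1b, Gabpa and Tfam. The median deviation of the 19 regulators was -0.26 in antiPD1 replicate 3, against -0.02 and 0.11 in the other antiPD1 libraries. Tfam had 52.7, 52.2 and 48.2 CPM in combination, 48.5, 44.3 and 42.9 in antiPD1, 45.0, 53.2 and 65.2 in IFNa, and 70.2, 62.8 and 59.5 in untreated libraries. Its combination and antiPD1 libraries thus all lay below the untreated ones. For combination libraries, 24.8% of all genes lay below untreated in this way. Gabpa exons overlap those of Atp5j, a peripheral stalk subunit, on the other strand, and Atp5j was not called.

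Of 29 tested assembly factors of complexes III, IV and V, Uqcc1 and Coa7 fell in antiPD1 against untreated libraries, by 0.36 ± 0.11 and 0.51 ± 0.16 (edgeR adjusted p = 0.0451 and 0.0498). Of all genes, 5.08% fell there. In combination 0 of the 29 were called with edgeR and 0 with DESeq2, and 5 had an unadjusted p below 0.05, again against 31.8%. Of 12 further factors of complexes I and II and of 24 genes of mitochondrial protein import, 0 were called with edgeR in either comparison, with 0 and 4 genes at an unadjusted p below 0.05 in each comparison, against 33.9% of all genes in antiPD1 and 31.8% in combination. DESeq2 called 0 of the 12 factors in both and 2 of the 24 import genes in antiPD1 and 1 in combination, all lower. Of 14330 genes it called 1200 lower in antiPD1 and 1260 lower in combination. In the tricarboxylic acid cycle, with 18 genes tested, Mdh2, mitochondrial malate dehydrogenase, fell by 0.30 ± 0.09 in antiPD1 (edgeR adjusted p = 0.0447). In combination Fh1, fumarate hydratase, fell by 0.65 ± 0.13 (0.0179) and Idh3g, an isocitrate dehydrogenase subunit, by 0.33 ± 0.09 (0.0373), each against untreated. The share of all genes that fell was 5.08% in antiPD1 and 5.0% in combination. Without antiPD1 replicate 3 only 2.26% of all genes were called in antiPD1 against untreated. That refit is not given here for Uqcc1, Coa7 and Mdh2. The median of the 18 genes was -0.16 in combination against untreated, and 12 of 18 were below 0.

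Lower scaled values in combination against untreated libraries were not limited to the respiratory chain. Of 77 mitochondrial ribosome genes 62 were below 0, with a median of -0.09 and 4 that fell. Of 78 cytosolic ribosome genes 75 were below 0, with a median of -0.24 and 2 that fell, Rpl18 and Rpl37a. With edgeR 5.0% of all genes fell in this comparison. DESeq2 called 8 of 77 mitochondrial and 12 of 78 cytosolic ribosome genes as lower. Of 14330 genes it called 1260 lower and 1784 higher, 21.2% in either direction. Summed cytosolic ribosome genes overlapped between the groups, with 58312 to 64205 CPM in combination and 61254 to 82391 in untreated libraries. The median of the 87 genes, -0.12, lay between those of the mitochondrial and cytosolic ribosome genes, beside an SD of 0.10 between replicates. TMM factors were 1.03 to 1.07 in combination and 0.943 to 1.01 in untreated libraries. Before scaling, the 87 genes held 1.05% to 1.09% of counts in combination and 1.07% to 1.13% in untreated libraries. By FPKM the median gene of complexes I, IV and V was higher in combination than in untreated, and that of II and III lower. The part of scaling in the shift was not tested.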

How the data were processed

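Libraries of RNA (12 in all) were grouped by the treatment in their labels, and table columns were assigned by name. The submitters' processing notes list HISAT2 2.1.0, HTSeq, Cufflinks and mm10; annotation, strand setting and each tool's step are not given in the sources. The deposited counts are whole reads per gene. The deposited FPKM are length-scaled values of the same genes. Columns of other samples numbered 0.

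Genes passed filterByExpr at a minimum count of 10. Counts were scaled by TMM, and edgeR 4.0.16 (R 4.3.3) fitted all 12 libraries with 1 mean per group (robust quasi-likelihood), with Benjamini-Hochberg adjustment over 14330 genes at 0.05. SEs are the log2 fold change over the root of F. CPM are TMM-scaled, and intervals are 95% intervals. Alternatives were RLE size factors, no filter, DESeq2 1.42.0, the replicate block, a fit of only the compared groups, limma 3.58.1 on log2(FPKM + 1) or log2(FPKM + 0.1), and leaving out libraries. The edgeR steps were tested on simulated data.

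Genes are named where they passed a test, have the smallest p in each direction where none passed, or are core subunits or isoforms with partners. Members and lists were chosen with earlier results of these data known. Coordinates are from GENCODE M21 and promoters from RefSeq GRCm38.p6. Replicates all differed beyond sampling noise and were kept separate. For 1 member, values are not reported here.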

Additional observations from a re-analysis of the deposited data

How the results depend on the processing

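Replicate numbers were not taken as pairs. Correlations of same-numbered deviations from the group means were -0.25, -0.06 and -0.16 for IFNa with untreated. They were -0.02, 0.35 and 0.43 for antiPD1 with untreated, and -0.30, 0.20 and -0.12 for combination with untreated. They were 0.00, 0.50 and -0.10 for combination with antiPD1 and 0.29, 0.17 and 0.099 for combination with IFNa, where each was above 0. The deviations sum to 0 within each group of 3, so these correlations cannot exclude a pairing. With the replicate block the number of called genes in combination against untreated was 3 (15.2% of all genes), against 5. No called fold change changed sign, and IFNa against untreated, combination against antiPD1 and the interaction had 0 called genes under every alternative run. The interaction could not be fitted on the groups compared alone.

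In antiPD1 against untreated, 4 genes were called (14.8% of all genes); without the low-count filter 2 were (9.93%), with DESeq2 7 (23.1% of all genes), with only the groups compared 0 (0 of all genes), with limma on log2(FPKM + 1) 2 (8.29%), on log2(FPKM + 0.1) 1 (9.15%), and without a filter on FPKM 1 (4.09%). With IFNa replicate 1 and antiPD1 replicate 3 both left out 2 were called (10.7%), and leaving out 1 library gave 0 to 7, with 0 without antiPD1 replicate 3 (2.26%), untreated replicate 1 (0.0344%) or untreated replicate 2 (0.0412%). In combination against untreated, 5 genes were called (12.6%); without the filter 1 was (7.86%), with DESeq2 11 (21.2% of all genes), with only the groups compared 12 (27.2%), with limma 1 in each of its 3 forms (6.83% to 9.42%), and with both libraries left out 15 (29.2%). Leaving out 1 library gave 0 to 13, with 0 without any single combination replicate, untreated replicate 1 or untreated replicate 2 (0.227% to 1.43% of all genes), and 13 (17.8%) without untreated replicate 3. In combination against IFNa, DESeq2 called 7 (11.6% of all genes), both libraries left out gave 3 (9.07%), and leaving out 1 gave 0 to 4, the highest without antiPD1 replicate 3 (10.03%). The cause was not tested. The genes lower in all libraries with antiPD1 numbered 5, on the deposited FPKM scale 2, and 5 to 8 with 1 library left out; those higher numbered 2 to 3. This last count and its alternatives were chosen after seeing the data.

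Over 21 alternatives the sign of each called gene held. Ndufa4l2 kept its call in antiPD1 against untreated in 17, Atp5g3 in 11, Ndufa11 in 6 and Atp5a1 in 5. In combination against untreated Uqcrfs1 kept it in 13, Ndufa11 in 12, Uqcrc2 in 10 and Cox7a2l in 7, and Ndufa4l2 passed in 10. The median of the 87 genes stayed below 0 in antiPD1 (-0.09 to -0.01) and combination (-0.17 to -0.02) against untreated, and ranged from -0.09 to 0.07 in IFNa against untreated. It ranged from -0.09 to 0.04 in combination against antiPD1, from -0.16 to 0.01 in combination against IFNa, and from -0.11 to 0.02 in the interaction. Depth limits the 5 low isoforms, for which 3 counts correspond to at least 0.0778 CPM.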
